A study of Danio rerio with 6 samples.

Results

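The genes described here belong to 11 families of solute carriers, the membrane proteins that move sugars, amino acids, monocarboxylates and fatty acids in and out of cells. They were chosen by symbol, as the genes named *slc1a*, *slc2a*, *slc3a*, *slc5a*, *slc6a*, *slc7a*, *slc16a*, *slc27a*, *slc36a*, *slc38a* or *slc43a* followed by a digit. This gave 129 gene identifiers of 26190 in the expression table, with 128 symbols, because *slc27a1b* belongs to 2 identifiers. One gene so chosen, *slc7a6os*, is named for lying opposite *slc7a6* and is not a transporter. Families are written by number, for example *slc7* for all *slc7a* genes.

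RNA was sequenced from 2 populations of cells sorted from *Tg(krt4:GFP)* zebrafish embryos at the 4-somite stage, with 3 GFP-positive libraries and 3 GFP-negative libraries. The transgene puts green fluorescent protein under the *krt4* keratin promoter, which is active in periderm, the flat outermost layer of the embryo, also called the enveloping layer (EVL). All 6 libraries came from transgenic embryos with no other treatment, each from the cells of many pooled embryos. GFP-positive cells are therefore defined by promoter activity, and GFP-negative cells are the mixture of all other cells.

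Solute carriers of these families work either as facilitators, which let a substrate run down its gradient, or as cotransporters and exchangers, which use sodium, protons or a second amino acid to drive uptake. The *slc2* family holds the facilitative glucose transporters and *slc5* the sodium-coupled carriers of glucose, inositol, vitamins and monocarboxylates. Amino acids are carried by *slc1*, *slc6*, *slc7*, *slc36*, *slc38* and *slc43* proteins, and several *slc7* light chains reach the plasma membrane only when bound to an *slc3* heavy chain. The *slc16* family carries lactate, pyruvate and aromatic amino acids, and *slc27* proteins take up fatty acids.

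The libraries held 40584467 to 49679602 estimated counts each, so that 3 counts, taken as the floor, corresponded to 0.0604 to 0.0739 CPM (counts scaled to library size). All 12 EVL markers were higher in GFP-positive cells (5537 to 5774 summed TPM against 868 to 967 in GFP-negative libraries; TPM is a level per transcript length, scaled to the same total in each library). Markers of other cell types were also higher in GFP-positive cells. All 6 hatching-gland genes were called higher (6488 to 6735 TPM against 860 to 864), as were 3 of 4 notochord genes (392 to 492 TPM against 121 to 122). Of the 7 neural markers, 6 were lower in GFP-positive cells (501 to 506 TPM against 918 to 938), as were 2 of 4 pronephros markers (44.5 to 54.5 TPM against 71.7 to 78.6). Of the other lists, GFP-positive cells had 3 higher and 1 lower of 6 basal epidermis markers, 3 higher of 5 ionocyte, 2 higher of 4 endoderm and 2 higher of 7 tested yolk syncytial layer markers, 3 higher and 1 lower of 6 blood and endothelium markers, and 2 higher and 3 lower of 7 paraxial mesoderm markers. No marker was at 0 in all libraries. The part of these cell types in the differences below was not tested.

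Of the 129 genes, 113 passed the filter on low counts and entered the quasi-likelihood test of edgeR. The other 16 averaged at most 0.210 TPM in either population. A gene was called when its Benjamini-Hochberg adjusted p over all 20944 genes tested was below 0.05 and its mean TPM exceeded 1 in the higher population. By this rule 32 transporters (28.3%) were higher in GFP-positive cells, against 24.1% of all genes tested, and 16 (14.2%) were lower, against 25.0% of all genes. The remaining 65 were not called, and without GFP-negative replicate 1 only 10 were called lower (8.77%, against 22.5% of all genes). The counts given below for single families and gene lists are set against the same 24.1% higher and 25.0% lower of all genes. No family or list was tested as a set, except that summed heavy-chain and light-chain TPM were compared by permutation, as given below. In bulk libraries fewer cells of a type and less RNA per cell cannot be told apart, and this holds for every difference below.

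Over the 48 called transporters the log2 fold change had a median size of 0.62, and 38 of them differed by less than 2-fold. At least 2-fold differences were called for 7 genes higher in GFP-positive cells (6.19%, against 8.45% of all genes) and 3 lower (2.65%, against 3.93%). The median log2 fold change over the 113 tested genes was 0.18, against 0.02 over all genes. With limma on log2(TPM + 1), 18 transporters were higher in GFP-positive cells (15.9%, against 17.8% of all genes) and 15 lower (13.3%, against 27.9%), and the medians on that scale were 0.04 for transporters and -0.06 for all genes. On log2(TPM + 0.1), 16 (14.2%, against 16.4% of all genes) were higher and 15 (13.3%, against 25.6%) lower. In TPM the 3 GFP-positive libraries all lay above the 3 GFP-negative ones for 29 transporters (25.7%, against 24.2% of all genes), and all below for 25 (22.1%, against 34.3%). The balance of higher to lower calls among the transporters moved with whether counts or TPM were tested.

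**Figure D1:**
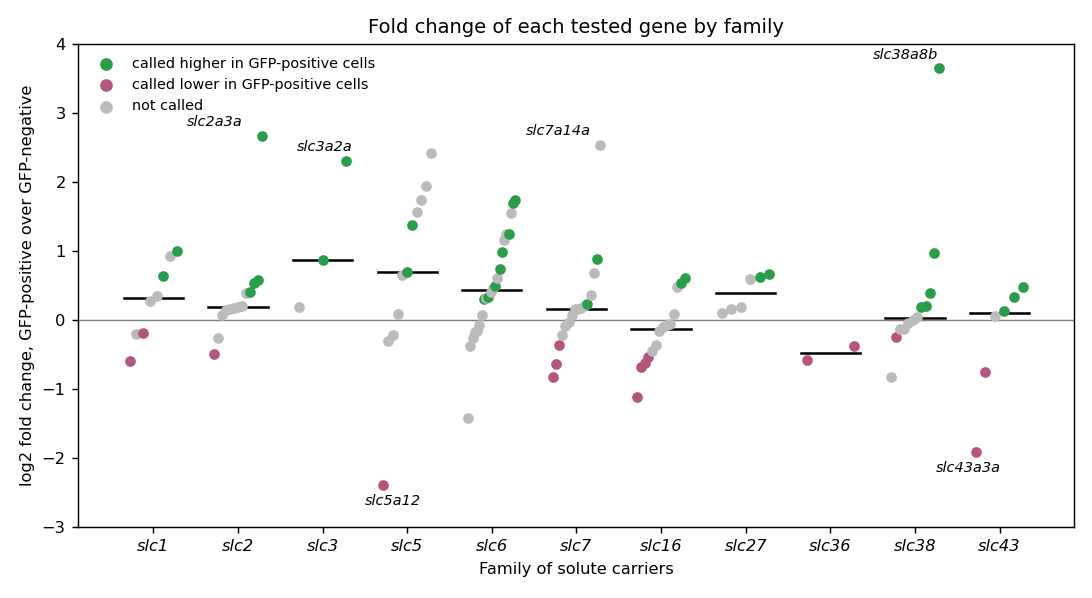
Log2 fold change (vertical axis, GFP-positive over GFP-negative) of each of the 113 tested genes, grouped by family along the horizontal axis, with 1 point per gene coloured by its call and a bar at the family median. Most points lie within 1 log2 unit of 0; *slc38a8b*, at 3.66, stands highest and *slc5a12*, at -2.39, lowest.

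Of the 3 heavy-chain genes of the *slc3* family taken by the symbol rule, the 2 *slc3a2* copies were higher in GFP-positive cells. The slc3a2 protein, known as CD98hc or 4F2hc in mammals, escorts *slc7* light chains to the plasma membrane. A further locus, SLC3A2 (1 of many), lay outside the symbol rule and was also higher (3.23 ± 0.37 TPM in GFP-positive libraries and 0.87 ± 0.28 TPM in GFP-negative libraries, log2 fold change 1.99). It is left out of the heavy-chain shares, sums and ratio below. *slc3a2a* (ENSDARG00000036427) had 7.46, 9.11 and 10.6 TPM in GFP-positive libraries, against 1.90, 1.81 and 1.93 TPM in GFP-negative libraries. The groups did not overlap, and the log2 fold change was 2.30 (SE 0.14, adjusted p = 5.40e-09). *slc3a2b* (ENSDARG00000037012), the copy with the higher level, had 55.8, 54.6 and 58.6 TPM in GFP-positive libraries, against 33.3, 33.7 and 33.2 TPM in GFP-negative libraries. It also separated the groups, with a log2 fold change of 0.87 (SE 0.06, adjusted p = 3.11e-08). The *slc3a2a* copy made up 13.8% ± 1.82 of the summed TPM of *slc3a2a* and *slc3a2b* in GFP-positive libraries and 5.33% ± 0.201 in GFP-negative libraries (SD, n = 3 each). *slc3a1*, the heavy chain of the cystine transporter of kidney and gut, was not called (1.35 ± 0.23 TPM in GFP-positive libraries and 1.29 ± 0.21 TPM in GFP-negative libraries).

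Of 7 genes taken by the symbol rule for light chains that bind slc3a2, 1 was higher in GFP-positive cells, 2 were lower and 4 were not called. SLC7A8 (1 of many), outside the rule, was not called (0.11 ± 0.06 TPM in GFP-positive libraries and 0.22 ± 0.11 TPM in GFP-negative libraries). It is left out of the light-chain sum and ratio below. *slc7a5*, whose mammalian protein LAT1 exchanges large neutral amino acids, had 1.69, 2.21 and 1.79 TPM in GFP-positive libraries, against 3.48, 3.54 and 2.53 TPM in GFP-negative libraries. Every GFP-positive library was below every GFP-negative one, and the log2 fold change was -0.64 (SE 0.20, adjusted p = 0.0142), with the call lost without GFP-negative replicate 1 (log2 fold change -0.56, adjusted p = 0.0579). The copies of *slc7a10*, known in mammals as the small neutral amino acid exchanger Asc-1, were called in opposite directions. *slc7a10a* had 1.10, 1.21 and 1.12 TPM in GFP-positive libraries, against 0.671, 0.597 and 0.750 TPM in GFP-negative libraries (log2 fold change 0.88, SE 0.21, adjusted p = 0.00263). *slc7a10b* had 3.44, 3.13 and 3.54 TPM in GFP-positive libraries, against 4.52, 5.18 and 4.39 TPM in GFP-negative libraries (log2 fold change -0.36, SE 0.13, adjusted p = 0.0253). Neither copy overlapped between groups, but the *slc7a10b* call was lost without GFP-positive replicate 2 (-0.32) or GFP-negative replicate 2 (-0.31). *slc7a11*, the cystine and glutamate exchanger, was not called (1.5 ± 0.03 TPM in GFP-positive libraries and 1.72 ± 0.11 TPM in GFP-negative libraries).

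Summed over *slc3a2a* and *slc3a2b*, heavy-chain RNA reached 65.4 ± 3.31 TPM in GFP-positive libraries and 35.3 ± 0.186 TPM in GFP-negative libraries. The 7 light chains summed to 12.8 ± 0.809 TPM in GFP-positive libraries and 14.8 ± 1.15 TPM in GFP-negative libraries, with ranges of 12.1 to 13.7 and 14.1 to 16.2 that did not overlap. The ratio of heavy-chain to light-chain TPM was 5.12 ± 0.10 in GFP-positive libraries and 2.39 ± 0.166 in GFP-negative libraries (SD, n = 3 each). A two-sided exact permutation test gave p = 0.1 for each sum and for the ratio, the smallest p that 3 libraries against 3 allow, so this test could not pass a threshold of 0.05.

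**Figure D2:**
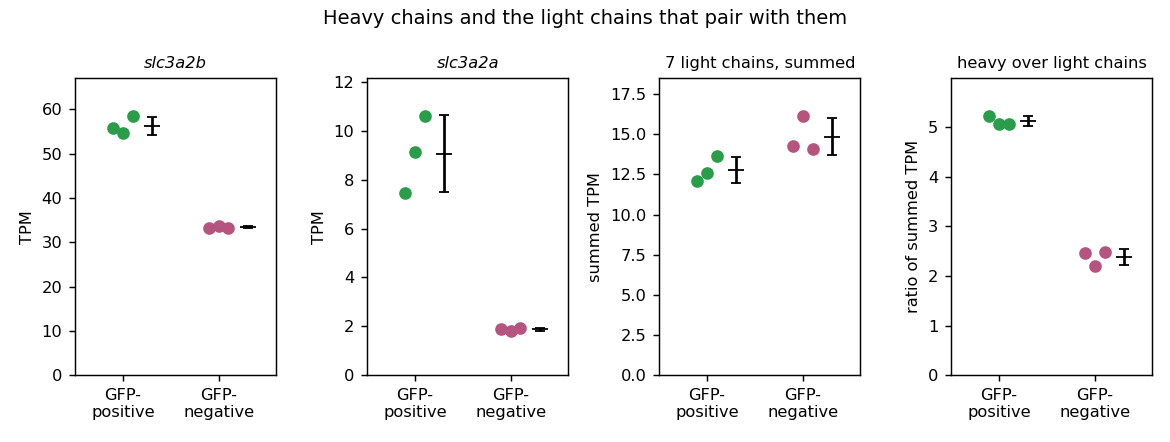
TPM of the slc3a2 heavy chains and of the summed slc7 light chains, and the ratio of their sums, in each panel for the GFP-positive libraries on the left and the GFP-negative libraries on the right. Points are single libraries and the marks beside them the mean with its SD; every GFP-positive library lies above every GFP-negative one for both heavy chains and for the ratio (5.12 against 2.39), and below for the light chains.

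Among the *slc7* genes of the symbol rule that need no heavy chain, the cationic amino acid transporters, 1 of 7 was lower in GFP-positive cells and 6 were not called. SLC7A1 (1 of many), outside the rule and left out of the sum below, was also lower. It had 15.8 ± 1.65 TPM in GFP-positive libraries and 22.1 ± 0.83 TPM in GFP-negative libraries (log2 fold change -0.37). *slc7a3a* (ENSDARG00000020645), a carrier of arginine and lysine, had 25.4, 27.5 and 35.8 TPM in GFP-positive libraries, against 56.0, 69.7 and 57.2 TPM in GFP-negative libraries. No GFP-positive library reached the GFP-negative range, and the log2 fold change was -0.83 (SE 0.08, adjusted p = 6.93e-07). Its copy *slc7a3b* had 10.6 ± 2.13 TPM in GFP-positive libraries and 9.35 ± 0.94 TPM in GFP-negative libraries and was not called (log2 fold change 0.16), but was called higher without GFP-positive replicate 1 (0.25, adjusted p = 0.0219) and with a length offset (0.29, adjusted p = 0.0438). *slc7a14a*, a distant member of this group, passed the p-value threshold with a log2 fold change of 2.53 (adjusted p = 5.13e-06) but stayed under 1 TPM (0.73 ± 0.05 TPM in GFP-positive libraries and 0.20 ± 0.04 TPM in GFP-negative libraries). The sum over the 15 *slc7* genes without *slc7a6os* was 60.2 ± 9.27 TPM in GFP-positive libraries and 92.3 ± 8.83 TPM in GFP-negative libraries, and did not overlap. *slc7a3a* alone made up 59.4% of this sum over the 6 libraries, so the sum does not describe the family as a whole. Of the 15 genes, 1 was called higher, 3 were lower and 11 were not called. *slc7a6os*, at 67.1 ± 3.43 TPM in GFP-positive libraries and 62.1 ± 2.61 TPM in GFP-negative libraries, was the most abundant gene caught by the symbol rule in this family. It was called higher (log2 fold change 0.23, adjusted p = 0.0146), though not without GFP-positive replicate 2 (0.18) or GFP-negative replicate 1 (0.20). Libraries of this kind carry no strand, so strand cannot separate any reads that *slc7a6os* shares with *slc7a6*. Whether the genes overlap was not examined.

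The largest difference of all 113 genes was in the *slc38* family, the sodium-coupled carriers of glutamine and other neutral amino acids. *slc38a8b* (ENSDARG00000054196), a homologue of human SLC38A8, a glutamine transporter needed for foveal development, had 42.7, 43.3 and 43.6 TPM in GFP-positive libraries, against 3.92, 3.87 and 3.44 TPM in GFP-negative libraries. The 3 GFP-positive libraries lay close together and far above the others. The log2 fold change was 3.66 (SE 0.09, adjusted p = 3.20e-13), or 12.6-fold, and ranged over 3.62 to 3.70 when each library was left out in turn. Its 2 annotated transcripts were both higher in GFP-positive cells, at 35.1 to 37.1 TPM against 2.77 to 3.66 TPM for ENSDART00000076345, and at 6.22 to 7.52 TPM against 0.214 to 0.663 TPM for ENSDART00000173762. Another locus, SLC38A8 (1 of many), lay outside the symbol rule and was not called (log2 fold change 1.05). It had 0.57 ± 0.05 TPM in GFP-positive libraries and 0.29 ± 0.29 TPM in GFP-negative libraries. EVL and hatching-gland markers and 3 of 4 notochord markers differed in the same direction as *slc38a8b*, as given above. The part of these cell types in the difference of *slc38a8b* was not tested.

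The other *slc38* genes differed less. In all, 5 of 12 were higher in GFP-positive cells, 1 was lower and 6 were not called. *slc38a5a* and *slc38a5b* are copies of the gene for SNAT5, which carries glutamine, asparagine and histidine. *slc38a5a* had 3.77, 3.04 and 3.47 TPM in GFP-positive libraries, against 1.90, 2.03 and 1.77 TPM in GFP-negative libraries, without overlap (log2 fold change 0.98, SE 0.13, adjusted p = 1.56e-05). *slc38a5b*, the most abundant gene of the family, had 79.2, 77.8 and 86.1 TPM in GFP-positive libraries, against 70.8, 84.6 and 76.4 TPM in GFP-negative libraries. Its TPM overlapped, although the counts gave a call (log2 fold change 0.19, SE 0.05, adjusted p = 0.00812) that was lost without GFP-negative replicate 1 (0.15). *slc38a4*, whose product takes up neutral amino acids, was the gene that was lower (log2 fold change -0.25, SE 0.07, adjusted p = 0.00533), with 43.9, 45.6 and 57.5 TPM in GFP-positive libraries, against 67.5, 88.1 and 81.5 TPM in GFP-negative libraries. *slc38a2*, encoding the widely expressed SNAT2, was not called (56.0 ± 9.80 TPM in GFP-positive libraries and 67.9 ± 1.57 TPM in GFP-negative libraries, log2 fold change -0.13), except without GFP-positive replicate 3 (-0.22, adjusted p = 0.000714). *slc38a9*, the lysosomal arginine sensor of mTORC1 in mammals, was higher at a low level (1.85 ± 0.10 TPM in GFP-positive libraries and 1.53 ± 0.06 TPM in GFP-negative libraries), with a log2 fold change of 0.39. The call was lost without GFP-positive replicate 1 (0.31) and with limma on log2(TPM + 1) (0.17). *slc38a10*, the remaining call, was higher by counts (log2 fold change 0.21) but overlapped in TPM (12.5 ± 2.90 in GFP-positive libraries and 9.44 ± 1.03 in GFP-negative libraries), and was lost without GFP-positive replicate 2 (0.19), GFP-negative replicate 2 (0.22) or GFP-negative replicate 3 (0.16), and with limma on log2(TPM + 1) (0.35) or log2(TPM + 0.1) (0.38).

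Summed over the family, *slc38* RNA was 290.0 ± 24.6 TPM in GFP-positive libraries and 289 ± 18.9 TPM in GFP-negative libraries, and the groups overlapped. Without *slc38a8b* the sums were 247 ± 24.2 TPM in GFP-positive libraries and 286 ± 18.9 TPM in GFP-negative libraries, and still overlapped.

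**Figure D3:**
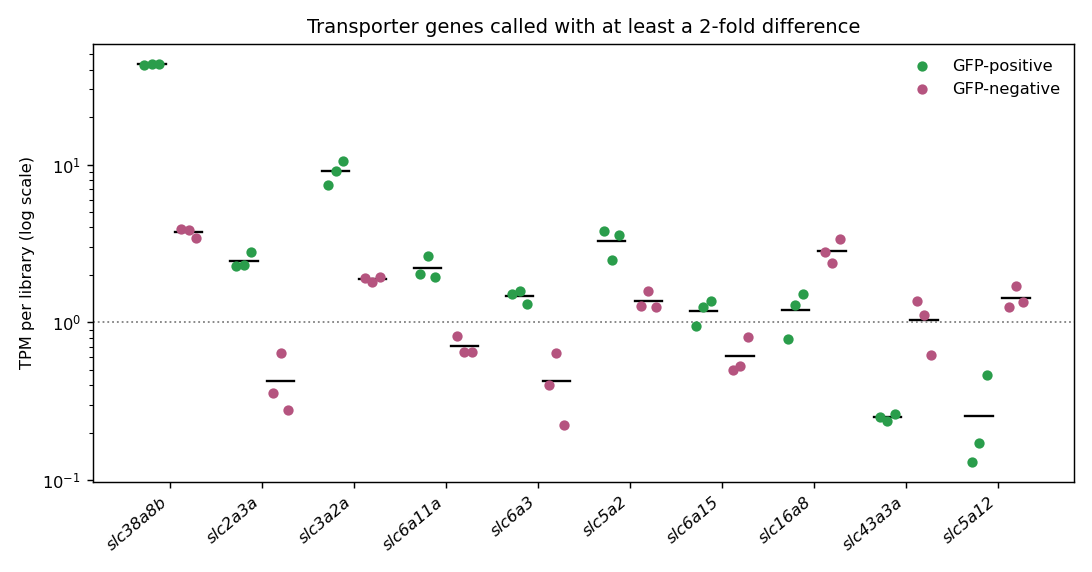
TPM per library (log scale) of the 10 genes called with at least a 2-fold difference, with GFP-positive libraries to the left of GFP-negative ones for each gene. Points are libraries, short bars their means and the dotted line 1 TPM; the libraries of the 2 populations do not overlap for any of the 10, and only *slc38a8b* and *slc3a2a* reach more than 5 TPM.

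In the *slc1* family, which holds the glutamate transporters and the neutral amino acid exchangers ASCT1 and ASCT2, 2 of 8 tested genes were higher in GFP-positive cells, 2 were lower and 4 were not called. *slc1a4*, the ASCT1 gene, which carries alanine, serine and cysteine, had 12.4, 11.2 and 13.9 TPM in GFP-positive libraries, against 6.47, 6.76 and 7.26 TPM in GFP-negative libraries. All GFP-positive values were above all GFP-negative values (log2 fold change 1.00, SE 0.09, adjusted p = 6.96e-07). *slc1a5*, the ASCT2 gene, a glutamine exchanger, had 14.1, 18.8 and 22.1 TPM in GFP-positive libraries, against 11.3, 14.3 and 12.5 TPM in GFP-negative libraries (log2 fold change 0.64, SE 0.11, adjusted p = 0.000289). Its lowest GFP-positive library lay just under the highest GFP-negative one, and the call was lost with limma on log2(TPM + 0.1) (0.51). *slc1a3a*, a glutamate transporter gene of glia in mammals, was the most abundant of the family, with 59.6, 63.9 and 58.5 TPM in GFP-positive libraries, against 75.9, 74.0 and 74.5 TPM in GFP-negative libraries. It was slightly lower (log2 fold change -0.19, SE 0.07, adjusted p = 0.0262), and the call was lost without GFP-positive replicate 3 (-0.13), GFP-negative replicate 1 (-0.17) or GFP-negative replicate 3 (-0.19). *slc1a2b*, another glutamate transporter gene, was lower as well (2.89 ± 0.42 TPM in GFP-positive libraries and 4.76 ± 0.57 TPM in GFP-negative libraries, log2 fold change -0.60), and *slc1a3b*, at 3.0 ± 0.12 TPM in GFP-positive libraries and 4.41 ± 0.82 TPM in GFP-negative libraries, was not called on counts (log2 fold change -0.21). It was called lower with a length offset (-0.44, adjusted p = 0.0179) and with limma on log2(TPM + 1) (-0.42, adjusted p = 0.0185) or log2(TPM + 0.1) (-0.52, adjusted p = 0.0271). Neural markers were also lower in GFP-positive cells, and their part in these values was not tested.

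Both *slc36* genes, which encode proton-coupled amino acid transporters of lysosomes and the cell surface, were lower in GFP-positive cells. *slc36a4* had 2.50, 2.40 and 2.67 TPM in GFP-positive libraries, against 4.05, 4.23 and 4.00 TPM in GFP-negative libraries (log2 fold change -0.58, SE 0.12, adjusted p = 0.00104). *slc36a1* had 2.18, 2.35 and 2.93 TPM in GFP-positive libraries, against 3.55, 3.77 and 3.16 TPM in GFP-negative libraries (log2 fold change -0.37, SE 0.12, adjusted p = 0.0159). Neither gene overlapped between the groups. The *slc36a1* call was lost in 4 of the 6 fits that left out a library, namely without replicate 1 or 2 of either population (-0.35 to -0.31).

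The *slc43* family encodes the amino acid facilitators LAT3 and LAT4 and, in *slc43a3*, a purine nucleobase carrier. Of its 6 genes, 3 were higher in GFP-positive cells, 2 were lower and 1 was not called, and *slc43a1a* alone made up 91.5% of the family's TPM. The LAT4 copies were called in opposite directions. *slc43a2b* had 2.33, 2.67 and 4.02 TPM in GFP-positive libraries, against 2.55, 2.10 and 2.0 TPM in GFP-negative libraries (log2 fold change 0.48, SE 0.16, adjusted p = 0.0177). *slc43a2a* had 0.948, 1.29 and 0.938 TPM in GFP-positive libraries, against 1.11, 2.25 and 2.83 TPM in GFP-negative libraries (log2 fold change -0.76, SE 0.26, adjusted p = 0.0242). Both overlapped in TPM. The *slc43a2b* call was lost without GFP-positive replicate 3, GFP-negative replicate 2 or GFP-negative replicate 3 (0.41 each), and that of *slc43a2a* without GFP-positive replicate 3 (-0.65) or GFP-negative replicate 3 (-0.46).

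*slc43a3a* had 0.252, 0.236 and 0.264 TPM in GFP-positive libraries, against 1.37, 1.10 and 0.617 TPM in GFP-negative libraries, without overlap. The log2 fold change was -1.91 (SE 0.36, adjusted p = 0.000462). The mean of 1.03 TPM in GFP-negative libraries sat just above the limit, so that the call was lost without GFP-negative replicate 1 (-1.62, adjusted p = 0.00481) or replicate 2 (-1.88, adjusted p = 0.00187). *slc43a1b*, a LAT3 copy, was higher (3.54 ± 0.11 TPM in GFP-positive libraries and 3.09 ± 0.16 TPM in GFP-negative libraries, log2 fold change 0.33). The call was lost without GFP-negative replicate 1 (0.30) and with limma on log2(TPM + 1) (0.15) or log2(TPM + 0.1) (0.19).

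In the *slc6* family, the sodium- and chloride-coupled carriers of neurotransmitters, taurine, creatine and amino acids, 8 of 22 tested genes were higher in GFP-positive cells, while 14 were not called. With edgeR 0 were called lower, as with DESeq2 and limma on log2(TPM + 1), and 1, *slc6a19a.2*, was lower at an unadjusted p below 0.05. The higher calls did not all hold. Those of *slc6a4a*, *slc6a17*, *slc6a6b* and *slc6a16b* were lost with limma on log2(TPM + 1) or log2(TPM + 0.1), and that of *slc6a17* also with DESeq2. Most were at low levels. *slc6a11a*, a GABA transporter gene, had 2.02, 2.64 and 1.95 TPM in GFP-positive libraries, against 0.819, 0.649 and 0.650 TPM in GFP-negative libraries (log2 fold change 1.74, SE 0.21, adjusted p = 8.97e-06). *slc6a3*, the dopamine transporter gene, had 1.52, 1.59 and 1.31 TPM in GFP-positive libraries, against 0.402, 0.641 and 0.224 TPM in GFP-negative libraries (log2 fold change 1.70, SE 0.36, adjusted p = 0.00126). Neither gene overlapped between the populations. *slc6a15*, which encodes a carrier of branched-chain amino acids and proline in mammals, had 0.950, 1.26 and 1.36 TPM in GFP-positive libraries, against 0.501, 0.531 and 0.809 TPM in GFP-negative libraries (log2 fold change 1.25, SE 0.23, adjusted p = 0.000392), also without overlap. These genes rest on 11 to 201 estimated counts per library.

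Both taurine transporter copies were higher in GFP-positive cells. *slc6a6a* had 3.0, 2.74 and 3.33 TPM in GFP-positive libraries, against 1.99, 1.81 and 2.06 TPM in GFP-negative libraries, without overlap (log2 fold change 0.74, SE 0.14, adjusted p = 0.000565). *slc6a6b* had 4.91, 6.48 and 6.63 TPM in GFP-positive libraries, against 4.75, 5.56 and 3.50 TPM in GFP-negative libraries, with overlap (log2 fold change 0.49, SE 0.17, adjusted p = 0.0292). Its call was lost without GFP-positive replicate 2 (0.42), GFP-positive replicate 3 (0.45) or GFP-negative replicate 3 (0.33). *slc6a16b*, an orphan carrier gene, was the most abundant of the family at 41.9 ± 4.10 TPM in GFP-positive libraries and 36.7 ± 3.26 TPM in GFP-negative libraries, and was called higher (log2 fold change 0.31, SE 0.07, adjusted p = 0.00147) although its TPM overlapped. *slc6a9*, the glycine transporter gene GlyT1, was not called with all libraries (4.47 ± 2.02 TPM in GFP-positive libraries and 6.59 ± 0.82 TPM in GFP-negative libraries, log2 fold change -0.07), but would be without GFP-positive replicate 3 (-0.23, adjusted p = 0.0414).

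Of the facilitative sugar transporters of *slc2*, 4 of 13 tested genes were higher in GFP-positive cells, 1 was lower and 8 were not called. *slc2a3a* (ENSDARG00000013295), a copy of the gene for the high-affinity glucose transporter GLUT3, had 2.27, 2.32 and 2.79 TPM in GFP-positive libraries, against 0.355, 0.637 and 0.278 TPM in GFP-negative libraries. The 2 ranges lay apart, and the log2 fold change was 2.66 (SE 0.22, adjusted p = 2.20e-07). The other copy, *slc2a3b*, had 2.82, 3.46 and 3.17 TPM in GFP-positive libraries, against 2.67, 3.14 and 2.01 TPM in GFP-negative libraries (log2 fold change 0.40, SE 0.14, adjusted p = 0.0298). It overlapped, and the call was lost without GFP-positive replicate 2 (0.33) or GFP-negative replicate 3 (0.31).

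*slc2a1a*, a copy of the gene for GLUT1, the glucose transporter of most tissues, had 6.19, 6.63 and 10.6 TPM in GFP-positive libraries, against 6.24, 5.42 and 5.60 TPM in GFP-negative libraries. GFP-positive replicate 3 stood above the rest, and GFP-positive replicate 1 lay within the GFP-negative range. The call (log2 fold change 0.54, SE 0.16, adjusted p = 0.0129) was lost without GFP-positive replicate 3 (0.30, adjusted p = 0.0702). *slc2a10* was higher (6.97 ± 0.11 TPM in GFP-positive libraries and 5.01 ± 1.35 TPM in GFP-negative libraries, log2 fold change 0.58), a call lost with limma on log2(TPM + 0.1) (0.50). *slc2a11b* was the gene that was lower (2.52 ± 0.36 TPM in GFP-positive libraries and 3.77 ± 0.78 TPM in GFP-negative libraries, log2 fold change -0.49), a call lost without GFP-positive replicate 1 (-0.45), GFP-positive replicate 2 (-0.48) or GFP-negative replicate 1 (-0.32). *slc2a8*, an intracellular sugar transporter gene in mammals and the most abundant of the family, was not called (8.82 ± 0.97 TPM in GFP-positive libraries and 8.61 ± 0.33 TPM in GFP-negative libraries). The *slc2* sum was 39.7, 39.7 and 46.5 TPM in GFP-positive libraries, against 35.9, 36.3 and 35.9 TPM in GFP-negative libraries, and did not overlap.

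Among the sodium-coupled *slc5* carriers, 2 of 11 tested genes were higher in GFP-positive cells, 1 was lower and 8 were not called. *slc5a2*, a homologue of the renal glucose transporter gene SGLT2, had 3.77, 2.48 and 3.58 TPM in GFP-positive libraries, against 1.27, 1.58 and 1.26 TPM in GFP-negative libraries. The groups did not overlap (log2 fold change 1.38, SE 0.19, adjusted p = 2.64e-05). *slc5a12*, whose mammalian protein carries lactate and other monocarboxylates with sodium in kidney and gut, had 0.130, 0.171 and 0.465 TPM in GFP-positive libraries, against 1.25, 1.70 and 1.35 TPM in GFP-negative libraries. This was the largest decrease among the called transporters (log2 fold change -2.39, SE 0.38, adjusted p = 9.86e-05), with a range of -3.11 to -2.07 when each library was left out. Of 4 pronephros markers, 2 were lower in GFP-positive cells and 2 were not called. Their part in the values of *slc5a12* and *slc5a2*, which had opposite signs, was not tested. The inositol transporter gene *slc5a3b*, most abundant of the family, was not called (8.39 ± 2.49 TPM in GFP-positive libraries and 10.5 ± 0.76 TPM in GFP-negative libraries, log2 fold change -0.22), except without GFP-positive replicate 3 (-0.43, adjusted p = 0.00214). The vitamin transporter copies differed in their calls: *slc5a6b* was higher (2.96 ± 0.07 TPM in GFP-positive libraries and 2.05 ± 0.52 TPM in GFP-negative libraries, log2 fold change 0.69) and *slc5a6a* was not called (3.52 ± 0.34 TPM in GFP-positive libraries and 3.58 ± 0.66 TPM in GFP-negative libraries). The *slc5a6b* call was lost with limma on log2(TPM + 0.1) (0.54).

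A further 8 transporters passed the p-value threshold below 1 TPM, all of them higher in GFP-positive cells (7.08% of the tested transporters, against 2.94% of all genes). They were *slc5a1*, *slc5a5*, *slc5a7a*, *slc5a11*, *slc6a1l*, *slc6a5*, *slc6a13l* and *slc7a14a*. The highest fold among the *slc5* genes was that of *slc5a1*, the SGLT1 gene, with 22, 16 and 25 estimated counts in GFP-positive libraries, against 7, 4 and 0 in GFP-negative libraries. With edgeR 0 transporters were lower by the same rule, against 1.19% of all genes, and 1 was lower at an unadjusted p below 0.05. The filter on low counts keeps a gene that has enough counts in 1 population alone. *slc5a1*, *slc5a5* (5, 1 and 12 counts in GFP-negative libraries), *slc5a11* (2, 5 and 5), *slc6a1l* (6, 6 and 5) and *slc6a13l* (9, 16 and 26) entered the test through their GFP-positive counts. No conclusion is drawn from the shared direction of these 8 genes.

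Among the *slc16* monocarboxylate transporters that carry lactate and pyruvate, 3 of 4 tested genes taken by the symbol rule were lower in GFP-positive cells on counts. Of these, *slc16a1b* and *slc16a8* were also lower in TPM. SLC16A7 and SLC16A3 (1 of many), with symbols in capitals outside the rule, were not called. The other tested gene of the rule, *slc16a1a*, was not called (1.38 ± 0.05 TPM in GFP-positive libraries and 1.68 ± 0.13 TPM in GFP-negative libraries). *slc16a1b* (ENSDARG00000068572), a copy of the gene for MCT1, had 14.6, 19.7 and 21.8 TPM in GFP-positive libraries, against 32.0, 31.4 and 29.4 TPM in GFP-negative libraries. All GFP-positive values were below all GFP-negative values (log2 fold change -0.62, SE 0.10, adjusted p = 0.000134). *slc16a8*, the MCT3 gene, known from the retinal pigment epithelium, had 0.782, 1.29 and 1.51 TPM in GFP-positive libraries, against 2.78, 2.39 and 3.36 TPM in GFP-negative libraries, again without overlap (log2 fold change -1.12, SE 0.23, adjusted p = 0.000892). *slc16a3*, the gene for the lactate exporter MCT4, was called lower on counts (log2 fold change -0.54, SE 0.16, adjusted p = 0.0102), but its TPM had the opposite sign, as described further on. The lactate and pyruvate carriers taken by the symbol rule summed to 20.7 to 33.2 TPM in GFP-positive libraries and 37.6 to 41.1 TPM in GFP-negative libraries.

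The most abundant *slc16* genes were not called. *slc16a6a*, which in zebrafish exports ketone bodies from the liver, had 59.4 ± 5.48 TPM in GFP-positive libraries and 67.1 ± 2.86 TPM in GFP-negative libraries. *slc16a10*, the aromatic amino acid transporter gene, had 36.9 ± 5.46 TPM in GFP-positive libraries and 39.5 ± 5.21 TPM in GFP-negative libraries. *slc16a12b* (6.63 ± 0.31 TPM in GFP-positive libraries and 4.97 ± 0.19 TPM in GFP-negative libraries, log2 fold change 0.53) and *slc16a13* (1.17 ± 0.09 TPM in GFP-positive libraries and 0.84 ± 0.19 TPM in GFP-negative libraries, log2 fold change 0.60) were higher. The *slc16a13* call was lost with limma on log2(TPM + 1) (0.24) or log2(TPM + 0.1) (0.45). *slc16a5a* was the fourth *slc16* gene that was lower (1.76 ± 0.23 TPM in GFP-positive libraries and 3.09 ± 0.79 TPM in GFP-negative libraries, log2 fold change -0.69), except without GFP-negative replicate 1 (-0.46).

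Of 6 tested *slc27* genes, which encode fatty acid transport proteins, 2 were higher in GFP-positive cells and 4 were not called. *slc27a4*, a homologue of the gene for FATP4, which is needed for the skin barrier in mammals, had 5.23, 5.32 and 5.65 TPM in GFP-positive libraries, against 4.30, 3.03 and 3.71 TPM in GFP-negative libraries. The groups did not overlap (log2 fold change 0.66, SE 0.14, adjusted p = 0.00106). The tested *slc27a1b* gene (ENSDARG00000104949) was higher too (2.61 ± 0.19 TPM in GFP-positive libraries and 1.78 ± 0.38 TPM in GFP-negative libraries, log2 fold change 0.63). *slc27a1a* (10.4 ± 0.85 TPM in GFP-positive libraries and 10.2 ± 0.21 TPM in GFP-negative libraries) and *slc27a2b* (6.43 ± 0.49 TPM in GFP-positive libraries and 6.20 ± 1.13 TPM in GFP-negative libraries), the most abundant of the family, were not called.

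Many of these genes are zebrafish duplicates with symbols ending in a and b. Of 31 such pairs, 24 had both copies tested. Both copies were higher in GFP-positive cells in 5 pairs (*slc2a3*, *slc3a2*, *slc6a6*, *slc38a5* and *slc43a1*), 2 pairs were called in opposite directions (*slc7a10* and *slc43a2*), 11 had 1 copy called and 6 had neither. Single genes were called higher in 24.1% and lower in 25.0% of all genes tested. No such count was made over all duplicate pairs, so no conclusion is drawn from these pair counts. With limma on log2(TPM + 1) only *slc3a2* of the 5 pairs kept both calls. The calls of *slc2a3b*, *slc6a6b*, *slc38a5b*, *slc43a1a* and *slc43a1b* were lost there, as were both of *slc43a2*, and *slc43a1a* was lower in TPM. In all 5 pairs with both copies higher, the copy with the larger fold change was the less abundant in GFP-negative cells. The GFP-negative level is the denominator of the fold change, so this is not an independent observation. A call in 1 copy alone is not a test of the difference between copies.

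**Figure D4:**
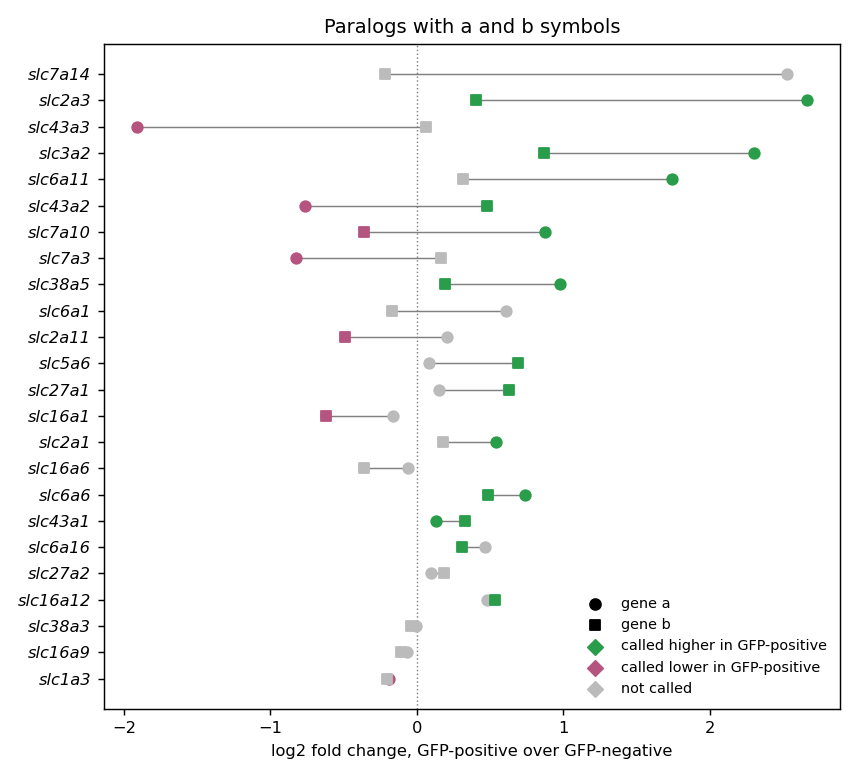
Log2 fold change (horizontal axis, GFP-positive over GFP-negative) of both copies of the 24 duplicate pairs with both copies tested, 1 pair per row, joined by a line. Circles are the a copy, squares the b copy, and colour gives the call; *slc3a2* (2.30 and 0.87) and *slc2a3* (2.66 and 0.40) lie to the right with both copies called, while *slc7a10* (0.88 and -0.36) and *slc43a2* (-0.76 and 0.48) span 0.

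Counts and TPM disagreed in sign for 2 called genes. For *slc43a1a*, a LAT3 copy, the counts were higher in GFP-positive cells (log2 fold change 0.13, SE 0.05, adjusted p = 0.0426), while TPM was 98.3 ± 5.35 in GFP-positive libraries and 112 ± 7.92 in GFP-negative libraries. Its transcript ENSDART00000054411 was at 0 in all 3 GFP-positive libraries, below the floor of 3 counts, against 18.1, 24.5 and 27.5 TPM (704, 808 and 1007 estimated counts) in GFP-negative libraries. The long transcript ENSDART00000106147 had 95.3, 95.1 and 103 TPM in GFP-positive libraries, against 85.6, 87.0 and 89.4 TPM in GFP-negative libraries. The gene-level call was lost without replicate 1 or 2 of either population (0.11 to 0.15), and the 2 transcripts differed in opposite directions.

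For *slc16a3* the counts were 154, 148 and 183 in GFP-positive libraries, against 206, 236 and 233 in GFP-negative libraries, while TPM was 5.38 ± 2.76 in GFP-positive libraries and 4.07 ± 0.77 in GFP-negative libraries. The 360-base transcript ENSDART00000148165 held 59.5% of the gene's TPM but 7.12% of its counts in GFP-positive libraries, and 23.8% of TPM and 1.47% of counts in GFP-negative libraries. Without transcripts under 500 bases the gene had 2.18 ± 1.33 TPM in GFP-positive libraries and 3.10 ± 0.41 TPM in GFP-negative libraries. In *slc38a4* a 232-base transcript likewise gave 39.0% of TPM from 0.67% of counts in GFP-positive libraries and 51.3% of TPM from 1.11% of counts in GFP-negative libraries. Without it the gene had 29.9 ± 4.24 TPM in GFP-positive libraries and 38.5 ± 1.66 TPM in GFP-negative libraries. In all, 6 tested transporters took more than 10% of their TPM in a population from such short transcripts, the others being *slc6a9*, *slc7a4*, *slc7a14a* and *slc38a10*. Leaving them out moved the *slc38* sum to 267 ± 19.7 TPM in GFP-positive libraries and 248 ± 10.7 TPM in GFP-negative libraries, still overlapping.

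**Figure D5:**
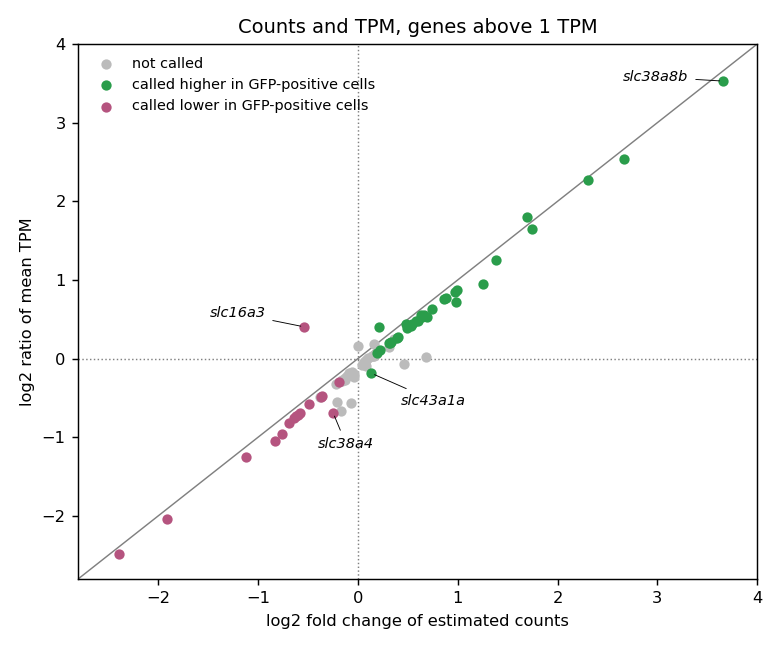
Log2 fold change of estimated counts (horizontal axis) against the log2 ratio of mean TPM (vertical axis), both GFP-positive over GFP-negative, for the tested transporters above 1 TPM; each point is a gene, coloured by its call, and the diagonal marks equal values. Most points lie near the diagonal, and *slc43a1a* (0.13 and -0.19) and *slc16a3* (-0.54 and 0.40) are called genes of opposite sign on the axes.

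Genes that act with these carriers were described from lists of partner proteins, enzymes and sensors. Over all genes tested, 24.1% were called higher in GFP-positive cells and 25.0% lower. Of 5 tested accessory genes 2 were higher in GFP-positive cells, 1 was lower and 2 were not called, the second higher gene being *nptna* (log2 fold change 0.91). *bsg*, whose product basigin escorts MCT1 and MCT4 to the membrane in mammals, was not called (34.7 ± 8.24 TPM in GFP-positive libraries and 30.4 ± 2.34 TPM in GFP-negative libraries). The copies of *txnip*, an arrestin that lowers glucose uptake in mammals, were called in opposite directions, with 171 ± 7.08 TPM in GFP-positive libraries and 249 ± 3.41 TPM in GFP-negative libraries for *txnipa* (log2 fold change -0.42) and 8.74 ± 0.65 TPM in GFP-positive libraries and 6.06 ± 0.23 TPM in GFP-negative libraries for *txnipb* (log2 fold change 0.64).

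Of 16 genes of the amino acid response driven by the transcription factor ATF4, whose mammalian targets include several amino acid transporter genes, 8 were higher in GFP-positive cells, 4 were lower and 4 were not called. With limma on log2(TPM + 1), 5 were higher and 4 lower, against 17.8% and 27.9% of all genes. The genes that were lower were *shmt2*, *phgdh*, *psph* and *asns*. Those that were higher included *atf4a*, a gene for ATF4 itself (387 ± 9.26 TPM in GFP-positive libraries and 280 ± 7.23 TPM in GFP-negative libraries, log2 fold change 0.57). Also higher were *sesn2* (log2 fold change 0.70), *chac1* (0.66), *ddit3* (0.54), *atf5b* (0.46) and *trib3* (0.18). *psat1*, which acts between *phgdh* and *psph* in serine synthesis, was higher (165 ± 6.03 TPM in GFP-positive libraries and 141 ± 9.31 TPM in GFP-negative libraries, log2 fold change 0.34), as was *mthfd2*, a mitochondrial folate enzyme gene (log2 fold change 0.57). *shmt2*, the mitochondrial serine hydroxymethyltransferase gene, had 26.7, 26.1 and 34.7 TPM in GFP-positive libraries, against 69.0, 79.3 and 78.9 TPM in GFP-negative libraries (log2 fold change -1.27, SE 0.09, adjusted p = 2.62e-08). *phgdh*, the first enzyme of serine synthesis, had 113 ± 1.63 TPM in GFP-positive libraries and 213 ± 2.27 TPM in GFP-negative libraries (log2 fold change -0.79).

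Of 17 tested enzymes that use the carried substrates, 9 were higher in GFP-positive cells, 3 were lower and 5 were not called. Using limma on log2(TPM + 1), 3 were higher and 5 lower, against 17.8% and 27.9% of all genes. The glutamine enzymes included the largest differences. *gls2b*, a glutaminase gene, had 2.12, 2.35 and 2.29 TPM in GFP-positive libraries, against 0.504, 0.218 and 0.179 TPM in GFP-negative libraries (log2 fold change 2.99, SE 0.32, adjusted p = 2.29e-06). *glula*, a glutamine synthetase gene, had 46.9, 49.0 and 51.6 TPM in GFP-positive libraries, against 124, 125 and 129 TPM in GFP-negative libraries (log2 fold change -1.27, SE 0.06, adjusted p = 1.88e-10). Its more abundant copy *glulb* was not called (836 ± 44.9 TPM in GFP-positive libraries and 1019 ± 40.3 TPM in GFP-negative libraries). The genes *glsa*, another glutaminase (log2 fold change -0.79), and *gpt2*, an alanine aminotransferase (-0.52), were the others that were lower. The most abundant glutaminase gene, *glsb*, was called higher (log2 fold change 0.85). It had 13.9 ± 1.78 TPM in GFP-positive libraries and 11.4 ± 1.98 TPM in GFP-negative libraries, and overlapped. A further glutaminase gene, *gls2a*, passed the p-value threshold (log2 fold change 1.90) but stayed under 1 TPM. Of 13 genes of mTORC1 amino acid sensing, 2 were higher in GFP-positive cells (*slc38a9* and *lamtor3*; 1 without GFP-positive replicate 1), 5 were lower (*mtor*, *mlst8*, *rraga*, *rragca* and *lamtor1*) and 6 were not called.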

How the data were processed

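RNA-seq libraries (3 of GFP-positive and 3 of GFP-negative sorted cells) were prepared by the authors from amplified cDNA with a tagmentation kit that carries no strand. The labels and methods name Trimmomatic (0.35 in the submitters' processing notes) for trimming and kallisto 0.41 for assigning reads to transcripts of danRer10. The deposited estimated counts (58.07% of values not whole) and TPM are kallisto output per transcript, gathered by the authors with sleuth. The deposited columns of the authors' own comparison (effect sizes, p-values and q-values) were not used. Genes were identified by the symbols and identifiers that the tables pair with each of 51286 transcripts.

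TPM and estimated counts were summed by gene identifier over the 256 transcripts of the transporters and all others, and the counts were rounded. All 6 libraries entered 1 fit in edgeR 4.0.16 (TMM, filterByExpr, quasi-likelihood test, population as the only term; R 4.3.3), with Benjamini-Hochberg adjustment over 20944 genes; SE is the log2 fold change over the square root of F. On simulated counts with the library sizes of these data (20920 genes tested) the fit called 62.1% of 1.5-fold, 93.9% of 2-fold and 100% of 4-fold changes, and 8 unchanged genes. Only 200 genes were changed, all above a minimum count, with 1 dispersion for every gene. These rates therefore do not give the power for genes with few counts or with more variable counts. The common biological coefficient of variation was 0.0952. Replicates differed by more than sampling noise (chi-square per degree of freedom 5.27 to 20.28 within a population). The methods call them independent biological replicates. Alternatives were DESeq2 1.42.0, limma 3.58.1 on log2(TPM + 1) and log2(TPM + 0.1), other scalings and filters, a length offset, a replicate block and each library left out.

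The genes named are the 2 most abundant of each family, all called with at least a 2-fold difference, and duplicate pairs called in opposite directions. Other transporters given with values were chosen after these were seen. The members and lists were chosen with earlier results of these data known. TPM depends on transcript length as annotated, so it can differ from counts where short transcripts are listed.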

Additional observations from a re-analysis of the deposited data

How the results depend on the processing

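Same-numbered libraries of the populations shared no deviation (correlation of deviations -0.01 to 0.004). This cannot show whether they came from the same sort. The methods describe isolating both populations in each replicate, and the labels do not state a pairing. With a replicate block 30 transporters were higher in GFP-positive cells (26.5%, against 23.4% of all genes) and 16 lower (14.2%, against 24.2%), compared with 32 and 16 without it. The calls of *slc43a1a* (adjusted p = 0.0771), *slc38a10* (adjusted p = 0.0511) and *slc6a17* were lost with the block in edgeR, and *slc7a8a* was gained. The count of higher calls was 18 with limma on log2(TPM + 1) (15.9%, against 17.8% of all genes), 16 on log2(TPM + 0.1) (14.2%, against 16.4%), 21 at an adjusted p below 0.01 (18.6%, against 19.2% of all genes) and 15 for genes above 5 TPM (13.3%, against 16.8%). That of lower calls was 9 at an adjusted p below 0.01 (7.96%, against 19.7%) and 4 above 5 TPM (3.54%, against 20.4%). Leaving out each library gave 26 to 32 higher calls (22.8% to 28.1%, against 20.9% to 24.3% of all genes) and 10 to 18 lower calls (8.77% to 15.7%, against 21.3% to 25.5%), the lowest count of lower calls without GFP-negative replicate 1. Of the 48 calls, 29 held in every fit that left out a library and 22 in every alternative fit, 15 of these higher and 7 lower in GFP-positive cells; no call turned into one of the opposite direction. Among the transporters given above with TPM values, signs turned on the TPM scales, log2(TPM + 1) and log2(TPM + 0.1) in that order, for *slc16a10* (-0.10 and -0.10), *slc16a3* (0.26 and 0.30), *slc43a1a* (-0.18 and -0.18) and *slc5a6a* (-0.012 and -0.013). Other tested transporters are not covered by this list: *slc6a16a*, for example, was at 0.47 on counts and -0.07 as the log2 ratio of mean TPM. With the length offset *slc16a3* was at 0.47 and *slc43a1a* at -0.074. With each library left out *slc5a6a* ranged over -0.041 to 0.24 (the lowest without GFP-negative replicate 3), and *slc6a9* over -0.23 to 0.011 (0.005 without GFP-positive replicate 2 and the highest without replicate 1). The cause was not tested. Leaving out *slc7a6os* (31 higher and 16 lower), leaving out short transcripts and summing *slc3a2a* with its upper-case copy were chosen after seeing the data. Genes near 1 TPM rest on few counts, which limits their calls.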

Other observations

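The table also holds 15 identifiers whose symbols match the same families in capitals, as copied from human names, which the symbol rule did not take. Another *slc3a2* locus, SLC3A2 (1 of many), had 3.43, 2.80 and 3.46 TPM in GFP-positive libraries, against 1.12, 0.572 and 0.912 TPM in GFP-negative libraries. The groups did not overlap (log2 fold change 1.99, SE 0.25, adjusted p = 1.03e-05 with edgeR's quasi-likelihood test). Reads shared with *slc3a2a* could be split between the 2 loci; the log2 difference of their summed CPM was 2.23, against 2.29 for *slc3a2a* alone. SLC5A10, a sodium-coupled sugar transporter gene in humans, was higher as well (8.31 ± 0.23 TPM in GFP-positive libraries and 5.41 ± 0.91 TPM in GFP-negative libraries, log2 fold change 0.73). SLC7A1 (1 of many), a cationic amino acid transporter gene, was lower (15.8 ± 1.65 TPM in GFP-positive libraries and 22.1 ± 0.83 TPM in GFP-negative libraries, log2 fold change -0.37), as was SLC27A3 (7.26 ± 0.65 TPM in GFP-positive libraries and 9.35 ± 0.92 TPM in GFP-negative libraries, log2 fold change -0.24). The lactate and pyruvate carrier gene SLC16A7 was not called (2.87 ± 0.41 TPM in GFP-positive libraries and 3.03 ± 0.18 TPM in GFP-negative libraries, log2 fold change 0.03). SLC16A3 (1 of many) was not called either (0.88 ± 0.48 TPM in GFP-positive libraries and 1.08 ± 0.30 TPM in GFP-negative libraries, log2 fold change 0.08). With the 15 identifiers counted, of which the SLC5A7 copies were not tested, 34 were higher in GFP-positive cells and 18 lower. No share was taken over this larger set. For the 113 tested genes of the rule the shares were 28.3% higher and 14.2% lower, against 24.1% and 25.0% of all genes.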
